A study of Mus musculus with 6 samples.

Results

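Melanocytes make pigment in the skin and hair, and 10 genes of that lineage were followed here in mouse lip. They were Tyr, Tyrp1, Dct, Pmel, Mlana, Oca2, Slc45a2, Mitf, Kit and Mc1r, a set named for known function and matched by symbol to the count table, where all 10 of the 26814 gene symbols were found. The samples were top lip tissue of adult female mice on the C57BL/6J background, 3 wild type (WT) and 3 labelled Gtf2ird1 knockout (KO), with 1 mRNA library per mouse. The KO mice are homozygous for tm1Hrd, a germline allele of Gtf2ird1 not limited to one cell type. The C57BL/6J background, shared by both groups, is black-coated and carries the nonagouti allele. The whole lip was homogenised, so each value is a sum over keratinocytes, hair follicles, dermis, muscle, nerve and the few pigment cells among them. In such a mixture, fewer cells of a type and less RNA per cell cannot be told apart.

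Melanin is built inside melanosomes, organelles of melanocytes. TYR, the rate-limiting enzyme, oxidises tyrosine, and its relatives DCT and TYRP1 act on later intermediates of eumelanin, the black pigment. PMEL forms the fibrils on which melanin is laid down, MLANA is a melanosomal membrane protein that works with it, and OCA2 and SLC45A2 are membrane transport proteins that keep the organelle at a pH at which TYR works. Above them stand MC1R, the receptor for melanocortins, which agouti protein blocks, KIT, the receptor tyrosine kinase for stem cell factor, and MITF, the transcription factor of the lineage, which binds E-boxes in the promoters of the enzyme genes. In mouse skin with fur most pigment cells sit in the hair bulb and make melanin while the hair grows. KIT and MITF are also used by mast cells, so neither marks melanocytes alone.

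The promoters of the enzyme genes are shown because they share the element through which MITF is known to act, and because the level of Mitf was measured in the same libraries. The sequences run 5′ to 3′ from 250 bases before to 50 bases after the RefSeq start (GRCm38.p6), with CATGTG or its reverse complement CACATG, and the longer match TCATGTGCT that contains it, in capitals. The Tyr window is chr7:87493463-87493762 on the minus strand, the Tyrp1 window chr4:80833963-80834262 on the plus strand, and the Dct window chr14:118052197-118052496 on the minus strand.
Tyr: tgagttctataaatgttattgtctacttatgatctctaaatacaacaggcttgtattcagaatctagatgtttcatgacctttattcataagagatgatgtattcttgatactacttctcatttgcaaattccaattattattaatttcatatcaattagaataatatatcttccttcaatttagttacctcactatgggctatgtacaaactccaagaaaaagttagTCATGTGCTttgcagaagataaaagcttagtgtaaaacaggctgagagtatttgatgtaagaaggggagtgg
Tyrp1: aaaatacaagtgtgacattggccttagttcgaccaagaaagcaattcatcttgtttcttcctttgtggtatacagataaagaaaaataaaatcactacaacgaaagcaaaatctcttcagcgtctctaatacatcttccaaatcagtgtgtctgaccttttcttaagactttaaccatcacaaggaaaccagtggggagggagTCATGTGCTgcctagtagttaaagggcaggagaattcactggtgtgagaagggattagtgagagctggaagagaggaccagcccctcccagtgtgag
Dct: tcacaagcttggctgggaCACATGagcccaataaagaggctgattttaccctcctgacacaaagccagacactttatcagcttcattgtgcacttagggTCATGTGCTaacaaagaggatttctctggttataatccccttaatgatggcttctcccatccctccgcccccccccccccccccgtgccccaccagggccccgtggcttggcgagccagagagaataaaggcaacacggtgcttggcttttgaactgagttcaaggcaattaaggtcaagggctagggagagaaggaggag
The 9-base match TCATGTGCT began 22 bases before the RefSeq start of Tyr, 47 before that of Tyrp1 and 151 before that of Dct. The GENCODE annotation, used below for gene positions, starts Tyrp1 at 80834123, which places the Tyrp1 match inside the gene. The 9-base match was found, on either strand, in 134 of 32851 promoter windows in the table, or 0.408%. CATGTG alone, on either strand, occurred in 14.2% of all windows. Among the members it was also present in the Mc1r and Oca2 windows, while the windows of Kit and Mitf held no match. CACGTG, the other common E-box, occurred in none of the 10 windows of the 7 members in the table and in 7.15% of all windows. These matches describe the letters of the windows and do not show binding.

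The libraries held 20164081 to 29491767 counts on genes, and a count of 3 in a library corresponded to 0.0986 to 0.153 CPM (counts per 1000000 counts, with library totals scaled by TMM factors). All 10 members had reads in each library, but 4 of them were too low to test, since a gene had to reach 1 CPM in at least 3 libraries. The 15009 genes that did so were compared between genotypes with edgeR's quasi-likelihood F test, with p-values adjusted by Benjamini and Hochberg over all of them. Gtf2ird1 itself had 70.2 to 78.2 CPM in the WT libraries and 144 to 166 CPM in those labelled KO (log2 fold change 1.11, adjusted p = 0.0018). The direction is opposite to that of a loss of transcript. Genotypes were checked on tail biopsies per the study's methods. The GTF2IRD1 protein is known to bind the promoter of its own gene, and the part of that binding in these counts was not tested. The counts sum over all its exons and do not show whether a deleted stretch is missing, so directions below are given for libraries as labelled. KO3 stood apart from the other libraries labelled KO in its effect on the calls, with 971 genes called with it and 4891 without it, so results are also given without that library. Markers of the labelled tissue were present, with summed CPM over 12 interfollicular keratinocyte markers of 27920 to 52610 and over 19 hair matrix and shaft genes of 6252 to 12880. All of the 5 skeletal muscle markers were at 236 CPM or more in every library.

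None of the 6 pigmentation genes that could be tested passed an adjusted p of 0.05, where 971 of 15009 tested genes did (6.47%). The count at an unadjusted p under 0.05 was 1 of 6, against 29.6% of all tested genes, and edgeR's exact test and DESeq2 also called 0. The log2 fold changes of 5 members lay below 0 and that of Tyr above it, where 52% of all tested genes lay below 0. The median of the 6 was -0.37, beside -0.023 over all tested genes. Kit was the only member whose genotypes did not overlap, with all KO values below all WT values, as in 18.1% of tested genes. Without KO3, Kit was called as 1 of 6 members (33.0% of all tested genes were called in that fit).

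**Figure D1:**
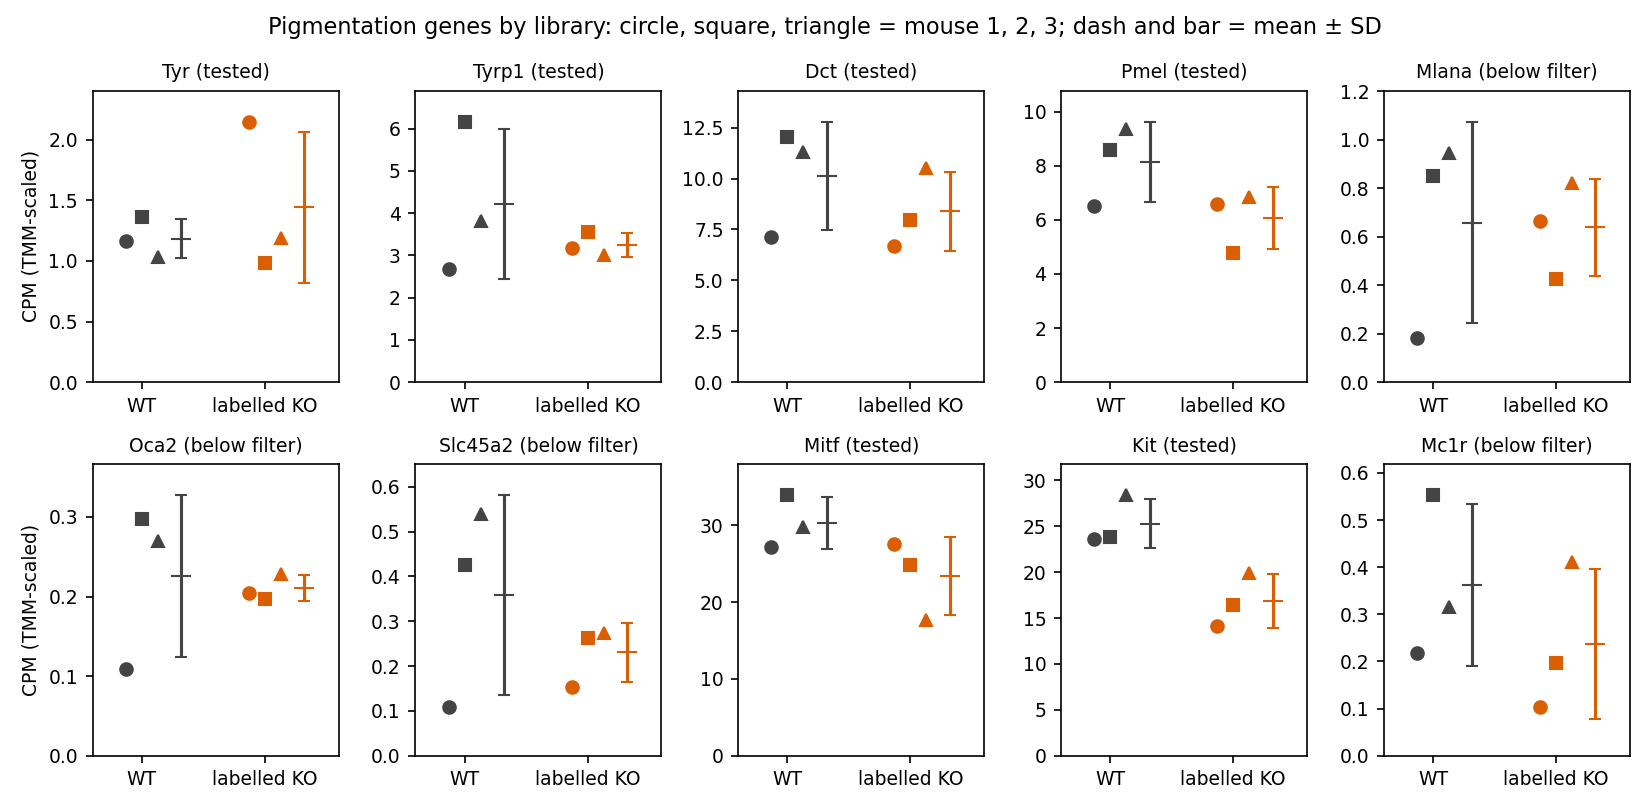
Levels of the 10 pigmentation genes in CPM on a linear axis from 0, one panel per gene, with WT libraries in dark grey and libraries labelled KO in orange. Points are single mice, with marker shape giving the replicate number, which was not taken to pair mice, and dashes with bars are mean ± SD (n = 3). Only in Kit do the groups separate, at 23.6 to 28.4 CPM in WT mice and 14.2 to 19.9 CPM in the KO-labelled libraries.

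The enzyme genes were low. Tyr (chromosome 7, 87424771 to 87493512) had 32, 32 and 23 counts in WT1, WT2 and WT3 and 42, 30 and 26 in KO1, KO2 and KO3, which came to 1.16, 1.36 and 1.03 CPM and 2.15, 0.986 and 1.19 CPM. The groups overlapped, and KO1 alone stood above the rest. Its log2 fold change was 0.25 (estimated with standard error 0.34, adjusted p = 0.644, edgeR), with a 95% interval from -0.54 to 1.05, and without KO1 its sign turned, to -0.072. A change within 0.688-fold to 2.07-fold was thus not distinguishable from none at this depth.

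Tyrp1 (chromosome 4, 80834123 to 80851719) had 2.69, 6.16 and 3.82 CPM in WT1, WT2 and WT3, and 3.17, 3.55 and 3.02 CPM in KO1, KO2 and KO3. The WT mice held both the highest and the lowest value, and the KO-labelled libraries lay between them. Its log2 fold change of -0.37 (standard error 0.31, 95% interval -1.08 to 0.33, adjusted p = 0.437) rested on WT2, without which it was 0.063. The coefficient of variation among WT mice was 42.0%, where counting error alone would give 9.93%.

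Dct (chromosome 14, 118012790 to 118052244), the most counted of the enzyme genes, had 7.11, 12.0 and 11.3 CPM in WT mice and 6.70, 7.99 and 10.5 CPM in the KO-labelled libraries, in order of replicate. WT1 fell among the KO-labelled libraries. The log2 fold change was -0.27 (standard error 0.26, 95% interval -0.86 to 0.32, adjusted p = 0.501), and leaving out each library in turn moved it between -0.48 without WT1 and -0.069 without WT2. The 3 enzyme genes did not share an order of libraries: Tyr was highest in KO1, Tyrp1 and Dct in WT2.

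Pmel (chromosome 10, 128704195 to 128720238) had 6.50, 8.59 and 9.36 CPM in WT1, WT2 and WT3 and 6.60, 4.77 and 6.86 CPM in KO1, KO2 and KO3. The overlap came from WT1, which was below KO1 and KO3. Its log2 fold change was -0.43 (standard error 0.22, 95% interval -0.93 to 0.084, adjusted p = 0.232), and it stayed between -0.57 and -0.22 with each library left out. Pmel shares 34 exon bases with Cdk2 and 105 with Dgka on the opposite strand, and whether counting used strand is not given in the sources used here. Mlana (chromosome 19, 29697824 to 29708634) had 5, 20 and 21 counts in the WT libraries and 13, 13 and 18 in those labelled KO. In CPM this was 0.182 in WT1 against 0.427 to 0.945 in the rest, under the filter in all of them.

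The transporters had few reads. Oca2 (chromosome 7, 56239760 to 56536518) had 3, 7 and 6 counts in the WT and 4, 6 and 5 in the KO-labelled libraries, or 0.109 to 0.298 CPM. Slc45a2 (chromosome 15, 11000721 to 11029233) had 3, 10 and 12 counts against 3, 8 and 6, or 0.109 to 0.540 CPM. WT1 was the lowest library for both, and the groups overlapped in both.

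Mc1r (chromosome 8, 123407107 to 123410744), the receptor that sets the balance between black and yellow pigment, had 6, 13 and 7 counts in the WT and 2, 6 and 9 in the KO-labelled libraries. The groups overlapped, at 0.218 to 0.553 CPM and 0.102 to 0.412 CPM. In the annotation it shares 653 exon bases with Gm38092 on the opposite strand. A fit without the filter, over 26814 genes of which 4.17% were called, gave the 4 low members log2 fold changes of 0.016 for Mlana, -0.016 for Oca2, -0.49 for Slc45a2 and -0.52 for Mc1r. Their adjusted p-values ran from 0.614 to 0.986 and their standard errors from 0.52 to 0.60, so that a change by a log2 unit was within the 95% interval of each gene in at least 1 direction.

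**Figure D2:**
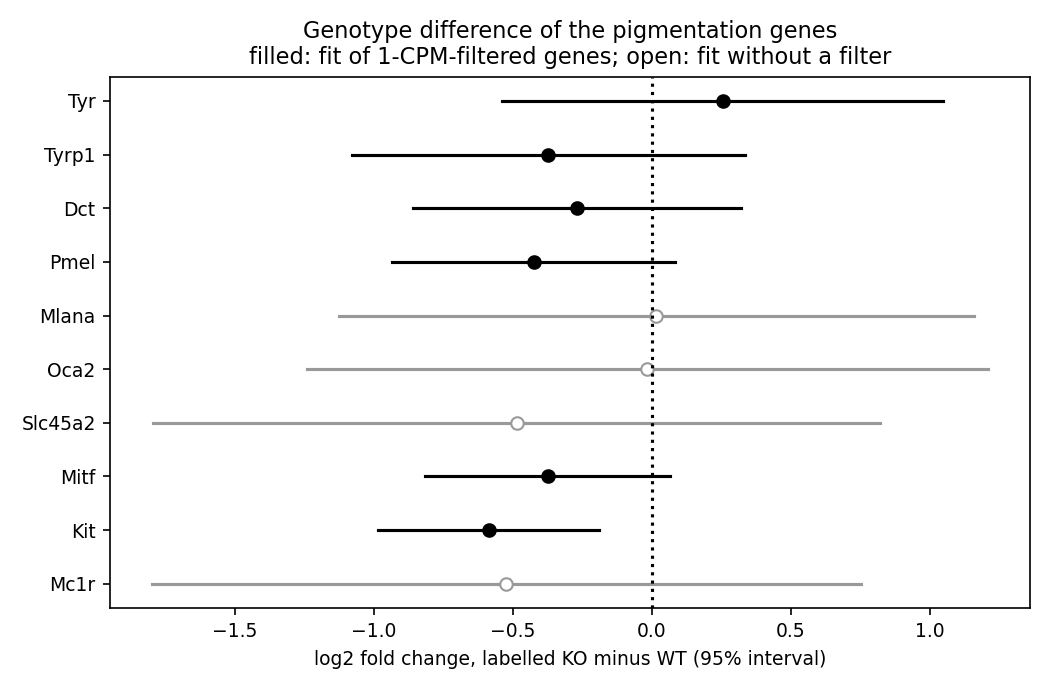
Log2 fold change of each pigmentation gene, libraries labelled KO minus WT, with its 95% interval as a horizontal line. Filled black points come from the fit over genes past the 1 CPM filter and open grey points from the fit without a filter. Only the interval of Kit, from -0.98 to -0.19, lies wholly below 0, and those of the 4 low genes are the widest.

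Mitf (chromosome 6, 97807052 to 98021349) had 27.2, 33.9 and 29.8 CPM in WT1, WT2 and WT3 and 27.5, 24.9 and 17.7 CPM in KO1, KO2 and KO3. KO1 lay inside the WT range, and KO3 was the lowest of the 6 libraries. The log2 fold change was -0.37 (standard error 0.19, 95% interval -0.82 to 0.067, adjusted p = 0.226), and -0.20 without KO3. Counts per gene sum over the alternative promoters of Mitf, of which the melanocyte form is one, and were not separated here.

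Kit (chromosome 5, 75574916 to 75656722) had 23.6, 23.9 and 28.4 CPM in the WT libraries and 14.2, 16.4 and 19.9 CPM in the KO-labelled libraries. Every KO value was below every WT value. The log2 fold change was -0.59 (standard error 0.17, 95% interval -0.98 to -0.19), or 0.666-fold. The adjusted p was 0.079 in edgeR's quasi-likelihood test. Leaving out single libraries moved this value between -0.72 and -0.42, and only the fit without KO3 passed the threshold, at an adjusted p of 0.0104. Over the 16 alternative fits the adjusted p ranged from 0.0104 to 0.294.

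**Figure D3:**
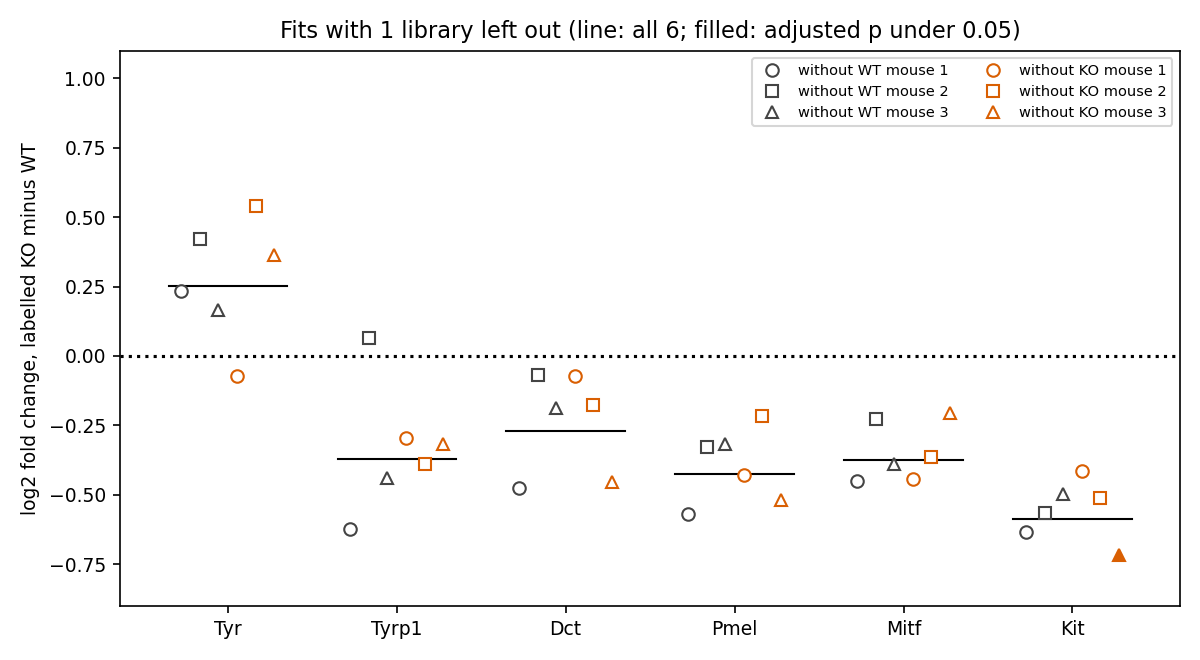
Log2 fold change, libraries labelled KO minus WT, of the 6 tested pigmentation genes (horizontal axis) when 1 library was left out; the short line is the fit with all 6 libraries, and a filled marker has an adjusted p under 0.05. The sign turned for Tyr without KO1 and for Tyrp1 without WT2, and the only filled marker is Kit without KO3.

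Levels per length differed widely among the members. In CPM per kilobase of annotated exon (RPKM), WT means were 4.88 ± 0.550 for Mitf, 3.55 ± 0.644 for Pmel, 2.83 ± 0.300 for Kit, 1.72 ± 0.449 for Dct and 1.49 ± 0.626 for Tyrp1 (SD, n = 3). Those of the rest were 0.622 ± 0.393 for Mlana, 0.166 ± 0.0231 for Tyr, 0.120 ± 0.0746 for Slc45a2, 0.0992 ± 0.0473 for Mc1r and 0.0568 ± 0.0257 for Oca2. Neighbours in this order whose ranges overlapped among WT mice were Pmel and Kit, Dct and Tyrp1, Mlana and Tyr, Tyr and Slc45a2, Slc45a2 and Mc1r, and Mc1r and Oca2. Mitf was the highest member in 5 of 6 libraries and Pmel in the other one, Kit was the third in all 6, and Oca2 was lowest in 5. The order depends on the length used: with the longest coding transcript of 2202 bases in place of 5895 exon bases, Dct had a mean over the 6 libraries of 4.20 instead of 1.57 RPKM. By mean RPKM over all exons, 67.7% of annotated gene symbols in the file lay below Mitf, 54.1% below Dct, 30.5% below Tyr and 17.5% below Oca2.

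The WT mice differed among themselves in the pigment genes. The summed CPM of Tyr, Tyrp1, Dct, Pmel, Mlana, Oca2 and Slc45a2 was 17.9 in WT1, 29.7 in WT2 and 27.3 in WT3, and 19.7, 18.2 and 22.9 in KO1, KO2 and KO3. WT1 was the lowest library of all for 4 of the 10 members and the highest for 0, while WT2 was the highest for 5 and WT3 for 4. The sum was 24.9 ± 6.26 CPM in WT mice and 20.3 ± 2.42 CPM in the KO-labelled libraries (SD, n = 3), a difference smaller than the spread among WT mice. For the members below the filter, counting error was itself large, at 25.5% for Mlana and 43.3% for Oca2 in the WT.

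Hair follicles house most melanocytes of furred skin, and 18 of 19 hair matrix and shaft genes had log2 fold changes below 0 (52% of all tested genes did). Of the 19, 4 were called lower and 0 higher (2.09% of all tested genes were called lower), 16 had all KO values below all WT values (18.1% of all tested genes did), and the median log2 fold change of the 19 was -0.78. The 4 were Shh, a signal from matrix cells (log2 fold change -1.25, adjusted p = 0.0147), Padi3, which modifies hair shaft proteins (-0.80, adjusted p = 0.0246), and the transcription factors Hoxc13 (-0.90, adjusted p = 0.0292) and Lef1 (-0.98, adjusted p = 0.0387), by edgeR's quasi-likelihood test. Over all marker lists of other cells, 6 of 57 tested genes were called with all libraries, where 6.47% of all tested genes were. The count was 0 without WT1, WT3, KO1 or KO2, and 2 without WT2. Calls over all genes fell in these 5 fits as well. They ran from 208 higher and 18 lower of 14745 genes without KO2 to 476 higher and 62 lower of 14792 without WT2. Without KO3, 12 of the 19 were called lower (16.2% of all tested genes were in that fit). The summed CPM of the 19 genes was 9981 to 12880 in the WT and 6252 to 8371 in the KO-labelled libraries, without overlap. Per 1000 CPM of that sum, the 7 pigment genes held 1.79, 2.84 and 2.12 CPM in WT1, WT2 and WT3 and 3.14, 2.20 and 2.74 CPM in KO1, KO2 and KO3. The groups overlapped in this ratio as well, at 2.25 ± 0.539 and 2.69 ± 0.473 (SD, n = 3). The part of hair follicle content in the levels of the pigment genes was not tested.

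**Figure D4:**
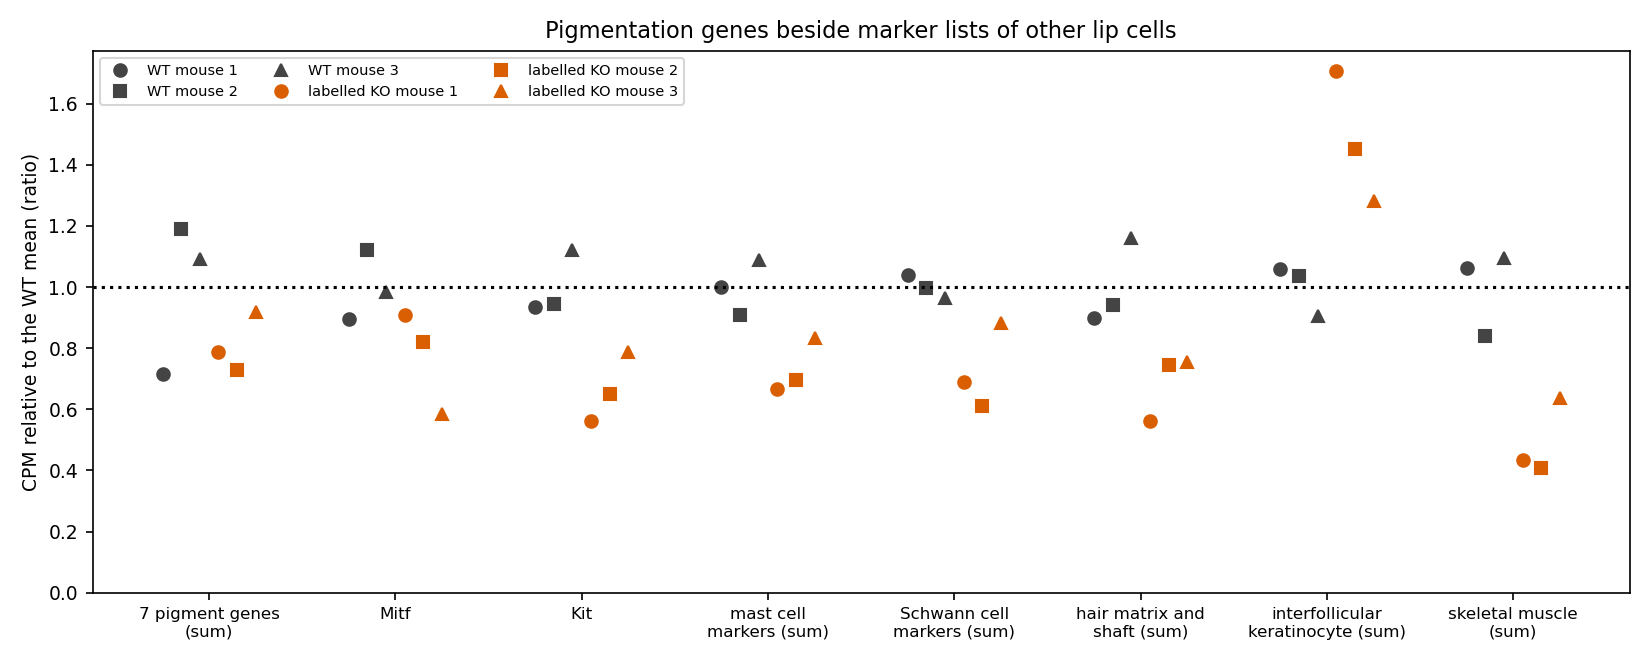
CPM in each library divided by the WT mean (dotted line at 1, linear axis), for the sum of 7 pigment genes, Mitf, Kit and the summed markers of 5 other cell types. WT libraries are dark grey and libraries labelled KO orange, with marker shape giving the replicate number. Groups overlap for the pigment sum and for Mitf and separate for Kit and for the 5 marker sums.

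Mast cells carry KIT at their surface, and their markers are given beside it. The summed CPM of 11 mast cell markers was 213 to 255 in the WT and 156 to 195 in the KO-labelled libraries, without overlap. The largest parts of the sum came from Mcpt4, Tpsb2 and Cma1, with WT means of 83.9, 51.2 and 42.7 CPM. Of these, Tpsb2 and Cma1 overlapped between genotypes as single genes. None of the 11 was at 0 in any library. As single genes 0 of 11 passed an adjusted p of 0.05 and 5 had an unadjusted p under 0.05 (29.6% of all tested genes). Of the 11, 8 had negative and 3 positive log2 fold changes (52% of all tested genes were negative), and the median was -0.45. Without KO3, 5 were called lower and 1, Cpa3, higher, where 33.0% of all tested genes were called and 16.2% lower. The mast cell proteases Tpsab1 (log2 fold change -1.39, adjusted p = 0.0552) and Mcpt4 (-0.57, adjusted p = 0.0917) and the transcription factor Gata2 (-0.73, adjusted p = 0.0925) had the lowest p-values by edgeR's test. Cpa3, another mast cell protease, had 33.2 CPM in KO1 and 34.7 CPM in KO2, above the WT values of 19.7 to 25.9 CPM, and 18.2 CPM in KO3, below them. The part of mast cells in the level of Kit was not tested.

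Schwann cells arise from the neural crest as melanocytes do, and share Sox10 and Ednrb with them. All 10 Schwann cell markers had negative log2 fold changes (median -0.36), where 52% of all tested genes did. Of the 10, 5 had no overlap between genotypes (18.1% of all tested genes had all KO values below). As single genes 0 were called, with 3 at an unadjusted p under 0.05 (29.6% of all tested genes). The summed CPM was 499 to 538 in the WT and 316 to 457 in the KO-labelled libraries. The myelin genes Ncmap (log2 fold change -0.71, adjusted p = 0.109) and Prx (-0.60, adjusted p = 0.127) were among those of lowest p-value, and without KO3 5 of the 10 were called, all lower, where 16.2% of all tested genes were called lower. Sox10, the transcription factor upstream of Mitf, had 8.38 to 13.1 CPM in WT mice and 5.53 to 8.14 CPM in the KO-labelled libraries, without overlap (log2 fold change -0.70, adjusted p = 0.102). Ednrb, the endothelin receptor of melanoblasts, overlapped between genotypes (-0.37, adjusted p = 0.325), as did Pax3 (-0.38, adjusted p = 0.294), another factor that acts on Mitf. The part of Schwann cells in these levels was not tested.

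The wider set of 17 melanocyte and melanosome genes had 14 members past the filter, of which 0 were called, 6 had an unadjusted p under 0.05 (29.6% of all tested genes), and the median log2 fold change was -0.024. Its lowest p-values belonged to genes with positive log2 fold changes. Rab38, a small GTPase that carries enzymes to melanosomes, had 27.4 to 32.3 CPM in WT mice and 41.6 to 46.3 CPM in the KO-labelled libraries (log2 fold change 0.51, standard error 0.13, adjusted p = 0.0636). The cystine transporter Slc7a11, which serves yellow pigment synthesis and is used in many other cells, had 24.5 to 25.0 CPM in WT mice and 93.3, 51.5 and 26.3 CPM in KO1, KO2 and KO3 (1.20, adjusted p = 0.0925). Atp7a, the copper pump that supplies TYR, had 27.5 to 40.6 CPM against 68.5, 76.1 and 38.6 CPM (0.81, adjusted p = 0.0956). KO3 was the library nearest to the WT for both transporters. Without KO3, 4 of the 14 genes were called higher and 3 lower, where 33.0% of all tested genes were called and 16.2% lower.

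The complexes that build melanosomes and other lysosome-related organelles had 16 of 17 genes tested and 0 called, with 3 at an unadjusted p under 0.05 (29.6% of all tested genes), a median of 0.055 and values from -0.18 to 0.43. Ap3b1 of the AP-3 adaptor (log2 fold change 0.43, adjusted p = 0.0878), Bloc1s2 of the BLOC-1 complex (0.43, adjusted p = 0.0915) and Vps33a of the tethering complexes (0.35, adjusted p = 0.12) had the lowest p-values. All 3 had KO values above the WT values. Of the 16, 4 had all KO values above and 0 all below. Over all tested genes, 31.5% had no overlap in either direction, and 18.1% had all KO values below. The rest of the 31.5% had all KO values above. Without KO3, 2 of the 16 were called higher, where 2496 of 14802 tested genes were (33.0% were called in either direction). Genes of these complexes work in many cell types.

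Signals that reach melanocytes from their surroundings gave 9 of 15 genes past the filter and 0 called, with 5 at an unadjusted p under 0.05 (29.6% of all tested genes) and a median of -0.35. Without KO3, 4 of the 9 were called lower, namely Mgrn1, Pcsk2, Edn3 and Edn2, where 16.2% of all tested genes were. Pcsk2, a protease that processes hormone precursors (log2 fold change -0.88, adjusted p = 0.0682), Mgrn1, a ubiquitin ligase that acts on melanocortin receptor signalling (-0.45, adjusted p = 0.0889), and the melanoblast growth factor Edn3 (-0.79, adjusted p = 0.118) had the lowest p-values. Each had all KO values below the WT values. Of the 9, 4 had all KO values below and 1 all above, where 18.1% of all tested genes had all KO values below. Kitl, the ligand of KIT, had 20.3 to 23.6 CPM in WT mice and 21.8, 31.8 and 13.3 CPM in KO1, KO2 and KO3, with a log2 fold change of 0.014 (adjusted p = 0.979). The agouti gene, listed as a, lay between 0.14 and 0.49 CPM in all 6 libraries and was not tested.

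Of the relatives of Mitf, Tfec rose from 0.181 to 0.382 CPM in the WT to 1.05 to 1.69 CPM in the KO-labelled libraries (log2 fold change 2.29, standard error 0.38, adjusted p = 0.0122). It passed the filter only through the KO-labelled libraries, and fell below it when any of them was left out, and 0 of the 3 relatives were called without WT1 or without WT3. With all libraries, 4.38% of all tested genes were called higher. Tfeb, a regulator of lysosome genes, had 31.0 to 38.7 CPM against 16.5 to 28.4 CPM (-0.75, adjusted p = 0.0782), and Tfe3 had overlapping groups (0.042, adjusted p = 0.877). Without KO3, in a fit that did not test Tfec, edgeR's test called Tfeb lower (-1.01, adjusted p = 0.00251), where 16.2% of all tested genes were. Keratinocytes, which take up melanin, gave 1 of 12 interfollicular markers called, Ivl, of the cornified envelope (log2 fold change 1.55, adjusted p = 0.0292), with Krt1 at 1.18 (adjusted p = 0.0584) and Itga6 at 0.34 (adjusted p = 0.127). The 5 skeletal muscle markers had a median of -1.09, and 1 of them was called lower, where 2.09% of all tested genes were. That gene was Tnnt3 (-1.01, adjusted p = 0.0397), with Ttn at -1.17 (adjusted p = 0.0685) and Acta1 at -1.29 (adjusted p = 0.0718). Neither Ivl nor Tnnt3 was called without WT1, WT3, KO1 or KO2, fits in which fewer of all tested genes were called as well. Without KO3, 3 of the 12 keratinocyte markers were called higher and all 5 muscle markers lower. In that fit 2496 genes were called higher and 2395 lower of 14802 tested.

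The profile shared by Tyr, Tyrp1, Dct and Pmel, the mean of their log2 CPM centred on each gene, was highest in WT2, at 0.39, and lowest in KO2, at -0.27, with WT1 at -0.24. The 5 tested genes nearest to it over the 6 libraries, by root mean square distance in log2 units, were Smyd3 (0.0495), Rdh11 (0.0713), Jam3 (0.0751), Layn (0.0786) and Smarca2 (0.0806). None of them passed the test between genotypes, with adjusted p-values from 0.267 to 0.689. The 4 genes that made the profile lay farther from it themselves, at 0.178 for Pmel, 0.226 for Dct, 0.228 for Tyrp1 and 0.363 for Tyr, and Mitf and Kit lay at 0.261 and 0.325. Nearness to a profile over 6 libraries is a description and carries no test.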

How the data were processed

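The study's authors mapped paired-end reads of the 6 lip libraries to GRCm38 with TopHat2 2.0.8 and Bowtie2 2.1.0 and deposited HTSeq counts of uniquely mapped reads per gene symbol, without normalization. Per the labels, RNA integrity numbers were 9 to 9.5. Counting mode and strand setting are not given in the sources used here. All 6 columns were used.

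Genes that reached 1 CPM in 3 or more libraries entered the test, made with edgeR 4.0.16 (R 4.3.3; TMM factors, estimateDisp, glmQLFit with legacy=FALSE, glmQLFTest), KO against WT, two-sided, at a Benjamini-Hochberg adjusted p of 0.05. Intervals are 95% from the fitted standard errors. The quasi-likelihood test replaced the exact test of the paper's methods, which was an alternative, beside DESeq2 1.42.0, limma-voom (limma 3.58.1), other normalizations and filters, a replicate block and left-out libraries. The script was tested on simulated data. Positions and exon lengths come from GENCODE M21 (GRCm38), in which 24804 symbols matched 1 gene, and promoters from RefSeq (7 of 10 members). Krt85 of the hair list was not analysed here.

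Members and lists were chosen with earlier results of these data known. Named beyond the members were the called genes of each list, filled up to 3 by lowest p, and the 5 nearest profiles (log2 CPM with edgeR's default prior count); Sox10, Ednrb, Pax3, Cpa3, Edn2, Kitl and a were added after their values were seen. A gene that this rule names is not reported here. Figures used matplotlib 3.10.9.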

Additional observations from a re-analysis of the deposited data

How the results depend on the processing

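Of 100 member values under the alternatives, 97 kept their direction and their side of the threshold, counting DESeq2's values for Oca2, Slc45a2 and Mc1r, which had no adjusted p. With a library left out, the log2 fold change of Tyr ran from -0.072 (without KO replicate 1) to 0.54 and that of Tyrp1 from -0.62 to 0.063 (without WT replicate 2), and Kit passed without KO replicate 3. The members called numbered 0 in every fit with all libraries at an adjusted p of 0.05, and 0 to 1 with a library left out. Over all genes, in place of 657 higher and 314 lower, the exact test called 1165 and 1073, DESeq2 1511 and 898, and an adjusted p under 0.1 gave 1248 and 1281. Lower genes numbered 207 with DESeq2's size factors, 204 without a filter and 204 with at least 10 counts in every library. With each library left out, 208 to 2496 genes were higher and 18 to 2395 lower, the highest without KO3 and the lowest without KO2.

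An adjusted p under 0.1 called 16.8% of all tested genes, 1 member (Kit), 2 genes of the melanosome complexes, 3 other melanocyte genes, 2 paracrine signals, 2 relatives of Mitf and 19 markers of other cells in place of 6. The exact test called 2 of 14 other melanocyte genes, 2 of 3 relatives of Mitf and 20 of 57 markers, where 14.9% of all tested genes were called. DESeq2 called 4 of 15, 2 of 3 and 17 of 57, with 2 of 17 genes of the complexes. Over all 16927 genes that it tested, DESeq2 called 1511 higher and 898 lower. With at least 10 counts in every library, 0 of 2 relatives of Mitf were called. That filter left Tfec untested, at 5, 9 and 7 counts in WT1, WT2 and WT3. Left-out libraries gave 0 to 2 genes of the complexes, 0 to 7 other melanocyte genes, 0 to 4 signals, 0 to 1 relatives of Mitf and 0 to 31 markers. Each highest count was reached without KO3, where 33.0% of all tested genes were called. The relative of Mitf called in that fit was Tfeb. The KO to WT ratio of pigment genes per hair matrix level was 1.20, and 1.09 to 1.38 with a library left out. With other denominators it was 1.39 for hair matrix transcription factors alone and 1.57 for hair shaft keratins alone. Per 1000 CPM of the shaft keratins, KO1 held 37.1 CPM, against 17.2 in KO2 and 18.3 in KO3. The causes of these shifts were not tested.

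Replicate numbers are shared by the genotypes, but deviations of same-numbered libraries correlated at -0.192, 0.293 and 0.312, so the numbers were not taken as a pairing. With the replicate block, 580 genes were higher and 217 lower, and Kit had a log2 fold change of -0.59 (adjusted p = 0.0656). Not every library correlated best with its own number. Depth limits Mlana, Oca2, Slc45a2 and Mc1r, at 2 to 21 counts a library. Nothing says whether the mice were littermates or were processed on one day.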
